A study of Mus musculus with 4 samples.

Results

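The 10 genes of the epidermal growth factor (EGF) family described here are 7 ligand genes (Areg, Ereg, Hbegf, Tgfa, Epgn, Btc and Nrg1) and 3 receptor genes (Egfr, Erbb2 and Erbb3), chosen by name out of 31053 genes counted. All 10 were found in the files under 1 gene identifier each. They were read in single cells of mouse back skin, by cell class, in 4 libraries. The Cd226-/- library came from BALB/c mice that lack the activating receptor CD226 (DNAM-1) and had received 25 µg of the mutagen DMBA once and, from 1 week later, 5 µg of the tumor promoter TPA once weekly for 3 weeks. The WT library came from BALB/c mice given the same treatment. The treated libraries each pooled 3 mice and mixed sorted CD45+ and CD45- cells 1:1. The naive CD45+ and naive CD45- libraries came from untreated BALB/c skin, and in both the WT and Cd226-/- cells were pooled, so that genotype cannot be read in naive skin. Each group is thus 1 library, every difference given here is a difference between libraries, and no test was possible. Each interval is an exact 95% interval that covers counting error only.

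Ligands of this family are made as membrane-bound precursors, cut free by metalloproteases, and bind receptor tyrosine kinases that pair on the cell surface. EGFR binds amphiregulin, epiregulin, heparin-binding EGF-like growth factor, transforming growth factor alpha, epigen and betacellulin. ERBB3 binds neuregulins and has little kinase activity of its own, while ERBB2 has no known ligand and acts as a partner of the others. In skin the pathway is known for driving keratinocyte growth and wound repair, and it is a classical route of tumor promotion.

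Of the 7 ligand genes, 4 lie side by side on chromosome 5 (GRCm38, GENCODE vM21 annotation), where Epgn, Ereg, Areg and Btc span 375.53 kb. Areg is at chr5:91139599-91148432 on the plus strand, Ereg at chr5:91074622-91093646 and Epgn at chr5:91027464-91035215, both also on the plus strand, and Btc at chr5:91357261-91402994 on the minus strand. The promoters of 6 of the 10 genes were matched by symbol in RefSeq tables of GRCm38.p6. There was no entry for Ereg, Hbegf, Nrg1 and Erbb3. Those of Areg and Epgn, the neighbours with the most and the fewest UMIs among the 7 ligands, and that of Egfr, the receptor gene with the most, are shown as the 250 bases before RefSeq's start of the gene on its own strand (Areg chr5:91139349-91139598, Epgn chr5:91027267-91027516 and Egfr chr11:16751953-16752202, all plus strand). RefSeq's start of Epgn lies inside the GENCODE span given above, so the end of its window overlaps that span. Capitals mark matches to 3 motifs that were searched: the TPA response element (TGAGTCA, both strands), the cyclic AMP response element (TGACGTCA, both strands) and the TATA box (TATAAA, the gene's strand).
Areg: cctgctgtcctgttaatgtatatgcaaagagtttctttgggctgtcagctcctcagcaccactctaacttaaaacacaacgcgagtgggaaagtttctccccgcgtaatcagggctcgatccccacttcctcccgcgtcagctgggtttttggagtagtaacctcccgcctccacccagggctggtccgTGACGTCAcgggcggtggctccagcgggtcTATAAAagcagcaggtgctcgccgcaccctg
Epgn: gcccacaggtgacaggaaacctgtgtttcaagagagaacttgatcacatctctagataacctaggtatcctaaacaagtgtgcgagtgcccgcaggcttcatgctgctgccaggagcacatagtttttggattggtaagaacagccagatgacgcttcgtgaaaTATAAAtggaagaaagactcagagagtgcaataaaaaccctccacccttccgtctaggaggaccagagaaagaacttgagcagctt
Egfr: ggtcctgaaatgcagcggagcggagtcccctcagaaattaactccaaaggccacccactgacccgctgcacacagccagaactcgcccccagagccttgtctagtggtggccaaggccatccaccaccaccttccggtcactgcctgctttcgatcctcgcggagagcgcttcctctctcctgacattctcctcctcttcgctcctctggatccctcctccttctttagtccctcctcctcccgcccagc
The Areg window held TGACGTCA, starting 61 bases before RefSeq's start, and TATAAA, starting 31 bases before it. The Epgn window held TATAAA, starting 86 bases before RefSeq's start. No match was found in the windows of Egfr, Tgfa, Btc and Erbb2, and TGAGTCA was in none of the 6. Among 32851 mouse promoters of the same length, TGAGTCA was found in 4.463%, TGACGTCA in 1.546% and TATAAA in 7.592%. A match is a description of the letters.

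Kept cells numbered 6498 in the Cd226-/- library, 7007 in the WT library, 10544 in the naive CD45- library and 3353 in the naive CD45+ library, with medians of 9062.5, 8335, 6546 and 8693 UMIs per cell. Between 5 and 18 kept barcodes were shared by any 2 libraries. As a check of the labels, lymphocyte-like cells held 50 Cd226 UMIs in Cd226-/- skin (622 cells) and 105 in WT skin (426 cells). Their median DNAM-1 antibody tag count was 2 in Cd226-/- skin and 44 in WT skin. The tag gap was not particular to them. Fibroblast-like cells had medians of 2 in Cd226-/- skin and 16 in WT skin, with 3 and 9 Cd226 UMIs. In naive CD45- skin their median was 106, with 0 Cd226 UMIs. Cell classes were rebuilt from the counts by fixed markers, with the EGF family and pathway genes left out of the clustering, and are called "-like". The borders between monocyte-like, macrophage-like and dendritic-like cells moved with the random seed of the clustering, while lymphocyte-like, neutrophil-like and fibroblast-like cells kept their numbers to within 2 cells. The 1:1 mix by sort did not hold among kept cells: 50.1% were in immune clusters in the Cd226-/- library and 27.3% in the WT library. The level of a gene in a class is its UMIs per 1000000 UMIs of that class, written CPM, and levels are not compared between genes.

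Summed over genes, most ligand and most receptor UMIs of treated skin lay in different classes. Lymphocyte-like cells held 57.9% of the UMIs of the 7 ligand genes in Cd226-/- skin and 51.5% in WT skin, and 29.7% in naive CD45+ skin, where monocyte-like cells held 38.1%. Fibroblast-like cells held 95.9% of the UMIs of the 3 receptor genes in Cd226-/- skin, 93.7% in WT skin and 99.2% in naive CD45- skin. These sums were mostly Areg and Egfr. Single ligands could differ, as fibroblast-like cells also held most of the Ereg UMIs (54.8% in Cd226-/- skin and 66.2% in WT skin) and of the Tgfa UMIs (70.9% in Cd226-/- skin and 51.8% in WT skin). The sums also follow how many cells of each class were loaded.

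**Figure D1:**
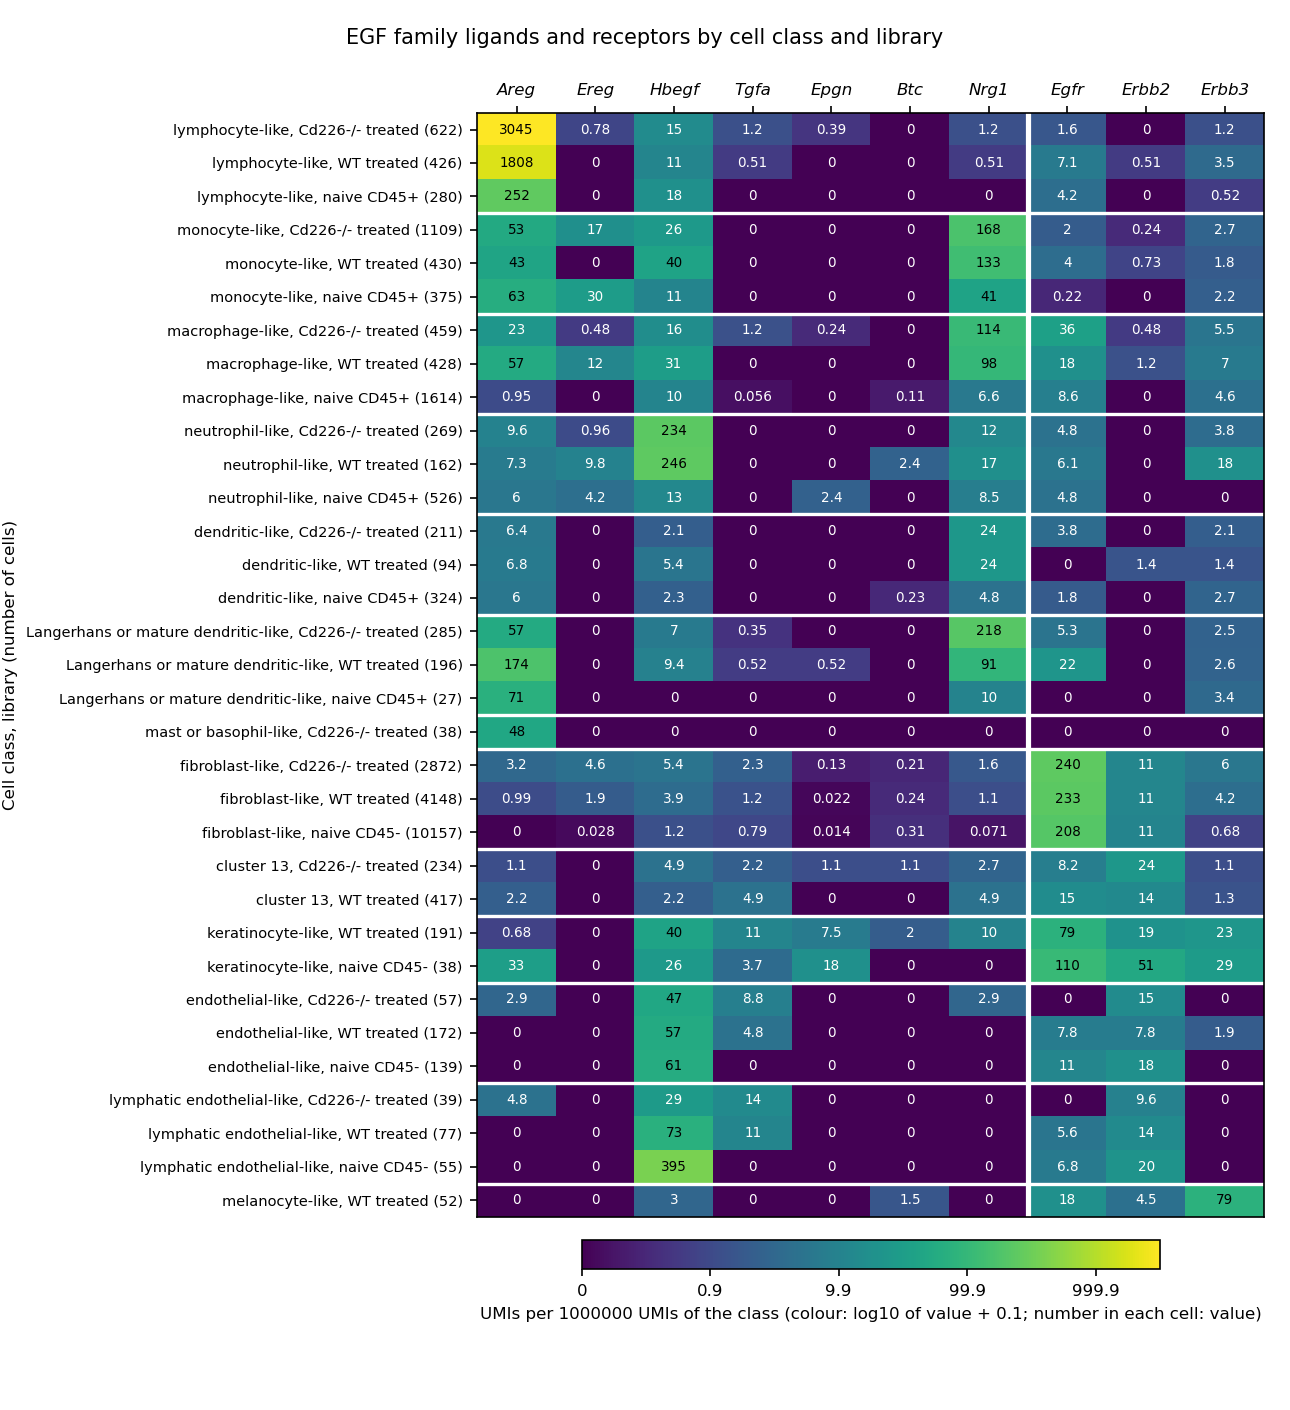
Level of the 10 genes (columns) in each cell class and library with at least 20 cells (rows, with the number of cells), as UMIs per 1000000 UMIs of the class. Areg was highest in lymphocyte-like cells (3045 in Cd226-/- skin and 1808 in WT skin), Nrg1 in Langerhans or mature dendritic-like, monocyte-like and macrophage-like cells of treated skin, and Egfr in fibroblast-like cells (240 in Cd226-/- skin, 233 in WT skin and 208 in naive CD45- skin).

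Areg encodes amphiregulin, a low-affinity EGFR ligand that lymphocytes make in tissue repair. Lymphocyte-like cells had 3045 CPM in Cd226-/- skin (95% interval 2978 to 3113, 622 cells), 1808 CPM in WT skin (1750 to 1869, 426 cells) and 252 CPM in naive CD45+ skin (230 to 276, 280 cells). Both treated libraries thus stood above naive skin, and the Cd226-/- library above the WT library. The ratio was 1.68 (1.62 to 1.75) for Cd226-/- over WT, 12.1 (11.01 to 13.3) for Cd226-/- over naive and 7.17 (6.52 to 7.90) for WT over naive. This class held 84.2% of all Areg UMIs of the Cd226-/- library, 77.0% of those of the WT library and 53.4% of those of the naive CD45+ library.

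Areg came from a minority of these cells. At least 1 Areg UMI was found in 213 of 622 lymphocyte-like cells in Cd226-/- skin (34.2%), 110 of 426 in WT skin (25.8%) and 32 of 280 in naive CD45+ skin (11.4%). At 1000 UMIs drawn from every cell, the shares were 27.8% in Cd226-/- skin, 19.9% in WT skin and 5.85% in naive skin. In macrophage-like cells of naive CD45+ skin, as a class low in the gene, the unthinned share was 0.743%, at a median of 9552.5 UMIs per cell against 3475.5 in the lymphocyte-like cells of Cd226-/- skin. The richest cells that together made up 50% of the lymphocyte Areg UMIs numbered 26 in Cd226-/- skin, 8 in WT skin and 2 in naive skin. The single richest cell held 322 UMIs in Cd226-/- skin, 366 in WT skin and 165 in naive skin. Without that cell in each library the ratio was 1.79 for Cd226-/- over WT, 17.5 for Cd226-/- over naive and 9.79 for WT over naive.

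When lymphocyte-like cells were clustered again, Areg was highest in L2, a sub-cluster led by the type 17 cytokine genes Il17f, Il17a and Il22, with 81.9% of its cells carrying Trdc, the constant region of the T-cell receptor delta chain. L2 had 13106 CPM in Cd226-/- skin (90 cells) and 8789 CPM in WT skin (65 cells), and it held 55.6% of lymphocyte Areg in Cd226-/- skin and 66.5% in WT skin. In L6, also rich in Trdc and Il17a (87.8% and 88.5% of cells), Areg was 3050 CPM in Cd226-/- skin (84 cells) and 976 CPM in WT skin (43 cells), a ratio of 3.13 (2.63 to 3.74), against 1.49 (1.42 to 1.57) in L2. L1, where 99.4% of cells had Trdc but 2.31% had Il17a, stood at 2272 CPM in Cd226-/- skin (118 cells) and 1520 CPM in WT skin (54 cells). The Cd226-/- library was thus the higher one in all 3 of these Trdc-rich sub-clusters.

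Outside the Trdc-rich cells the order of the libraries varied. L5, with Foxp3 among its leading genes, had 2084 CPM in Cd226-/- skin (23 cells) and 344 CPM in WT skin (21 cells), and, leaving out 1 richest cell per library, 557 CPM in Cd226-/- skin and 127 CPM in WT skin. L7, with Il13 in 40.8% of cells, had 2491 CPM in Cd226-/- skin and 1640 CPM in WT skin. L0 was led by the type 2 cytokine genes Il9, Il13 and Il5, but 49.22% of its cells had Il17a and 32.81% had Il13. Areg in L0 was 1611 CPM in Cd226-/- skin (98 cells) and 2740 CPM in WT skin (26 cells). In WT skin 1 cell held 223 of the 267 UMIs. Without the richest cell of each library the order in L0 turned, with 1105 CPM in Cd226-/- skin and 466 CPM in WT skin. The Cd8a-rich L4 had 234 CPM in Cd226-/- skin (70 cells) and 335 CPM in WT skin (110 cells), and without the richest cells 121 CPM in Cd226-/- skin and 154 CPM in WT skin. L9, with the natural killer receptor gene Ncr1 in 71.1% of cells, had 2 Areg UMIs in 32 cells of Cd226-/- skin and 83 in 24 cells of WT skin. These sub-clusters hold few cells, and the split into them uses the same cells.

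The cells of naive skin fell mostly into other sub-clusters. There Areg was 595 CPM in L10 (30 cells, Il1rl1 and Csf2 among its leading genes), 331 CPM in L7 (22 cells) and 276 CPM in L5 (27 cells). Single cells held 82 of the 135 UMIs of L10 and 33 of the 43 of L7, and without the richest cell the levels were 241 CPM in L10, 80.4 CPM in L7 and 147 CPM in L5. The Trdc-rich L12 had 33.8 CPM (103 cells) and L13 81.5 CPM (34 cells), and without the richest cell 17.9 CPM in L12 and 53.8 CPM in L13. Read by single transcripts, lymphocyte-like cells with an Il17a UMI held 74.9% of lymphocyte Areg in Cd226-/- skin (226 cells, 6590 CPM), 81.1% in WT skin (142 cells, 4701 CPM) and 37.2% in naive skin (28 cells, 855 CPM). Sub-clusters differed in size between the libraries: L0 made up 15.8% of lymphocyte-like cells in Cd226-/- skin and 6.10% in WT skin, and L4 11.2% in Cd226-/- skin and 25.8% in WT skin. With the sub-clusters of Cd226-/- skin weighted by the WT mix, Areg was 2656 CPM and the ratio to WT 1.47, which falls inside the 1.5-fold limit used below.

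**Figure D2:**
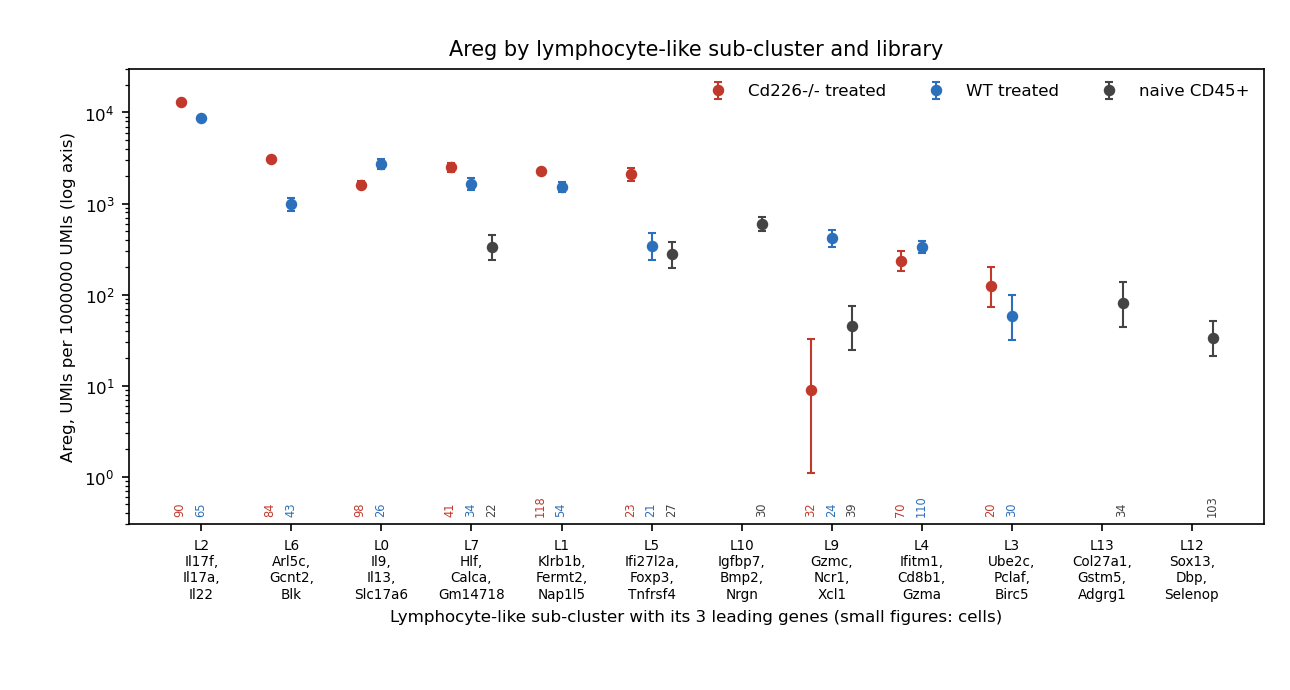
Areg level (log axis, UMIs per 1000000 UMIs) by lymphocyte-like sub-cluster and library, for sub-clusters with at least 20 cells in the library, with 95% counting intervals and numbers of cells. L2 is highest in both treated libraries (13106 in Cd226-/- skin and 8789 in WT skin), and the naive CD45+ points lie between 33.8 and 595.

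Other named classes had lower Areg levels. The clusters left unnamed because their markers were mixed had 186 CPM in Cd226-/- skin (266 cells), 178 CPM in WT skin (181 cells) and 109.9 CPM in naive CD45+ skin (37 cells). Monocyte-like cells had 53.3 CPM in Cd226-/- skin, 42.6 CPM in WT skin and 62.9 CPM in naive CD45+ skin, so that the 3 libraries were within 1.5-fold of each other. In naive skin 1 monocyte-like cell held 183 of the 289 UMIs. Without the richest cell of each library the levels were 43.1 CPM in Cd226-/- skin, 34.0 CPM in WT skin and 23.2 CPM in naive skin, and the ratio of Cd226-/- over naive was 1.86, past 1.5-fold. On the log2 scale the ratio of WT over naive was 1.82 when libraries were clustered separately and -0.61 with another seed, past 1.5-fold in opposite directions. That of Cd226-/- over WT was -1.45 when libraries were clustered separately.

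Macrophage-like cells had 22.9 CPM of Areg in Cd226-/- skin, 57.4 CPM in WT skin and 0.946 CPM in naive CD45+ skin (95, 188 and 17 UMIs). Both treated libraries were above naive skin, by 24.2-fold (14.3 to 43.3) for Cd226-/- and 60.7-fold (36.9 to 106) for WT. Their order relative to each other was not stable: the ratio of Cd226-/- over WT was 0.399, 1 cell held 110 of the 188 UMIs of WT skin, and without the richest cells the ratio was 0.678. On the log2 scale this ratio, -1.32, turned to 1.00 with another seed of the clustering and to 0.49 when libraries were clustered separately. Summed lymphocyte markers in these cells were also above naive skin, at 149 CPM in Cd226-/- skin, 85.8 CPM in WT skin and 16.9 CPM in naive CD45+ skin. That was 1.70%, 1.09% and 0.195% of their lymphocyte level, beside 0.752%, 3.17% and 0.375% for Areg. The part of lymphocyte RNA in the values was not tested. Langerhans or mature dendritic-like cells had 56.7 CPM in Cd226-/- skin and 174 CPM in WT skin, where 1 cell held 269 of 334 UMIs. That ratio, 0.325, was 1.03 without the richest cell of each library.

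Fibroblast-like cells had 123 Areg UMIs in 28 of 2872 cells in Cd226-/- skin (3.15 CPM), 46 UMIs in 26 of 4148 cells in WT skin (0.990 CPM) and none in 10157 cells of naive CD45- skin, which allows a share of up to 0.0295% of cells with a UMI. By UMI count the Cd226-/- level was at least 74.4-fold higher than the naive one, with 3 counts set for the naive class. Over cells this is no lower bound, because 2 cells held 50% of the UMIs of Cd226-/- skin. 1 cell held 51 of the 123 UMIs, and without it the bound by UMI count was 43.6. Summed lymphocyte markers in fibroblast-like cells were 0.208% of their lymphocyte level in Cd226-/- skin and 0.182% in WT skin, beside 0.104% and 0.0548% for Areg. The part of lymphocyte RNA in these values was not tested. The ratio to WT, 3.18 (2.25 to 4.57), turned to a log2 ratio of -0.86 when cells were gated on single markers.

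Ereg encodes epiregulin, which binds EGFR and ERBB4. It had 610 UMIs in all kept cells, and they sat in few cells. Fibroblast-like cells had 4.56 CPM in Cd226-/- skin (178 UMIs in 21 cells), 1.94 CPM in WT skin (90 UMIs in 15 cells) and 0.0282 CPM in naive CD45- skin (2 UMIs in 10157 cells). The treated libraries thus stood above naive skin, by 162-fold (44.1 to 1344) for Cd226-/- and 68.6-fold (18.5 to 575) for WT, and the Cd226-/- library above the WT library by 2.35-fold (1.82 to 3.07). Cluster 11, led by Grem1 and Tnc, a secreted BMP inhibitor and a matrix glycoprotein of repairing tissue, had 89.95 CPM in Cd226-/- skin (10 of 67 cells) and 16.02 CPM in WT skin (8 of 376 cells). Cluster 6, with the neutrophil chemokine gene Cxcl5 as its leading gene, had 12.8 CPM in Cd226-/- skin (5 of 187 cells) and 0.910 CPM in WT skin (4 of 868 cells).

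Among monocyte-like cells Ereg was in 6 of 1109 cells in Cd226-/- skin (142 UMIs, 17.4 CPM), in none of 430 in WT skin and in 8 of 375 in naive CD45+ skin (138 UMIs, 30.03 CPM). A count of 0 in WT skin allows a share of up to 0.698% of cells, above the 0.541% of Cd226-/- skin, so a difference in the share of cells was not detectable at this number of cells. By UMI count the Cd226-/- level was at least 15.9-fold higher than the WT level, with 3 counts set for WT. Over cells this is no lower bound, because the cells of Cd226-/- skin with an Ereg UMI had a median of 23.5 UMIs. In macrophage-like cells the order was the other way, with 2 Ereg UMIs in 1 cell of Cd226-/- skin (0.482 CPM) and 38 UMIs in 4 of 428 cells of WT skin (11.6 CPM). With cells gated on single markers the log2 ratio in monocyte-like cells was 0.13 for Cd226-/- over WT and -0.46 for WT over naive, both inside the 1.5-fold limit. The ratio of Cd226-/- over naive, 0.579 (0.455 to 0.737), came inside the limit with another seed (log2 -0.17), with the gates (log2 -0.34) and with EGF genes kept for clustering (log2 -0.40), and turned when libraries were clustered separately (log2 1.37).

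Hbegf encodes the heparin-binding EGF-like ligand of EGFR and ERBB4. Among immune classes of treated skin its level was highest in neutrophil-like cells. They had 234 CPM in Cd226-/- skin (244 UMIs, 38 of 269 cells), 246 CPM in WT skin (201 UMIs, 33 of 162 cells) and 12.7 CPM in naive CD45+ skin (21 UMIs, 5 of 526 cells). The richest cells that together made up 50% of these UMIs numbered 5 in Cd226-/- skin and 6 in WT skin. The ratio of Cd226-/- over WT was 0.952 (0.786 to 1.15), and it turned to a log2 ratio of 0.46 under TMM scaling, so that no order of the treated libraries can be given. Both were above naive skin, by 18.5-fold (11.8 to 30.4) for Cd226-/- and 19.4-fold (12.3 to 32.0) for WT. Dendritic-like cells, as a class low in Hbegf, had 2.15 CPM in Cd226-/- skin, 5.43 CPM in WT skin and 2.29 CPM in naive CD45+ skin.

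Monocyte-like cells had 25.8 CPM of Hbegf in Cd226-/- skin (211 UMIs), 40.5 CPM in WT skin (111 UMIs) and 10.7 CPM in naive CD45+ skin (49 UMIs). Macrophage-like cells had 16.2 CPM in Cd226-/- skin (67 UMIs), 31.4 CPM in WT skin (103 UMIs) and 10.5 CPM in naive CD45+ skin (188 UMIs). In both classes the Cd226-/- library was below the WT library, with ratios of 0.638 (0.505 to 0.811) in monocyte-like and 0.514 (0.372 to 0.706) in macrophage-like cells. Both came inside 1.5-fold under some other settings: the log2 ratio was -0.17 in monocyte-like cells when libraries were clustered separately, and -0.12 in macrophage-like cells with another seed of the clustering. The macrophage-like ratio of Cd226-/- over naive, 1.54 (1.15 to 2.05), likewise came inside the limit under TMM scaling (log2 0.58) and when libraries were clustered separately (log2 0.44).

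Among non-immune classes the level of Hbegf was highest in endothelial and epidermal ones. Fibroblast-like cells, low in level, held more of its UMIs than any of these: 209 in Cd226-/- skin, 179 in WT skin and 83 in naive CD45- skin. Lymphatic endothelial-like cells had 28.7 CPM in Cd226-/- skin (39 cells), 72.6 CPM in WT skin (77 cells) and 395 CPM in naive CD45- skin (58 UMIs in 19 of 55 cells). Here both treated libraries were below naive skin, whereas in neutrophil-like cells both were above it. With under 100 cells in a library no ratio was taken. Endothelial-like cells had 46.9 CPM in Cd226-/- skin, 57.2 CPM in WT skin and 61.4 CPM in naive CD45- skin. Without the richest cell of each library the log2 ratio of WT over naive was 0.72, past 1.5-fold. Keratinocyte-like cells had 40.4 CPM in WT skin (191 cells) and 25.6 CPM in naive CD45- skin (38 cells), and the Cd226-/- library held 18 such cells, too few for a level. Fibroblast-like cells had 5.36 CPM in Cd226-/- skin, 3.85 CPM in WT skin and 1.17 CPM in naive CD45- skin, and cluster 11 was again the highest (44.0 CPM in Cd226-/- skin and 17.1 CPM in WT skin).

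Tgfa, Epgn and Btc encode transforming growth factor alpha, epigen and betacellulin, EGFR ligands of epithelia. They were scarce, with 314, 58 and 63 UMIs in all kept cells. Tgfa was 10.9 CPM in keratinocyte-like cells of WT skin (32 UMIs in 23 of 191 cells). In fibroblast-like cells it was 2.31 CPM in Cd226-/- skin, 1.25 CPM in WT skin and 0.791 CPM in naive CD45- skin, with a ratio of 1.85 (1.31 to 2.62) for Cd226-/- over WT and 2.92 (2.07 to 4.15) for Cd226-/- over naive. Epgn in keratinocyte-like cells had 22 UMIs in 8 of 191 cells of WT skin (7.47 CPM), 11 of them in 1 cell, and 5 UMIs in 2 of 38 cells of naive CD45- skin. Btc was 2.04 CPM in keratinocyte-like cells of WT skin (6 UMIs in 191 cells), with 8, 11 and 22 UMIs in fibroblast-like cells of Cd226-/-, WT and naive CD45- skin.

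Nrg1 encodes neuregulin 1, a ligand of ERBB3 and ERBB4. It was carried by Langerhans or mature dendritic-like, monocyte-like and macrophage-like cells. Lymphocyte-like cells hardly had it, at no more than 1.17 CPM in any library. Monocyte-like cells had 168 CPM in Cd226-/- skin (159 to 177), 133 CPM in WT skin (120.1 to 148) and 41.3 CPM in naive CD45+ skin (35.7 to 47.7). Unlike Areg it was spread over many cells: 619 of 1109 monocyte-like cells in Cd226-/- skin (55.8%), 179 of 430 in WT skin (41.6%) and 102 of 375 in naive skin (27.2%) had a UMI, and no more than 13 UMIs lay in 1 cell. The share in lymphocyte-like cells was 0.322% in Cd226-/- skin and 0.235% in WT skin, at medians of 3475.5 and 3571.5 UMIs per cell against 6475 and 5620.0 in monocyte-like cells. At 1000 UMIs per cell, the shares in monocyte-like cells were 15.3% in Cd226-/- skin, 11.3% in WT skin and 3.36% in naive skin.

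Macrophage-like cells had 114 CPM of Nrg1 in Cd226-/- skin, 98.3 CPM in WT skin and 6.62 CPM in naive CD45+ skin, so that treated skin was 17.1-fold higher (14.0 to 21.1) for Cd226-/- and 14.8-fold higher (11.99 to 18.5) for WT. It was higher in cluster 0, led by Trem2 and Mmp12 (127 CPM in Cd226-/- skin and 108 CPM in WT skin), than in cluster 22, led by Ccl8, Folr2 and Cd209g (61.4 CPM in Cd226-/- skin and 51.3 CPM in WT skin). Dendritic-like cells had 23.7 CPM in Cd226-/- skin, 24.4 CPM in WT skin and 4.81 CPM in naive CD45+ skin. Langerhans or mature dendritic-like cells had 218 CPM in Cd226-/- skin (201 to 236, 285 cells) and 91.4 CPM in WT skin (78.3 to 106, 196 cells), and 3 UMIs in 27 cells of naive skin. For Cd226-/- over WT this was the farthest from equality of the 3 Nrg1 ratios in immune classes, at 2.38 (2.01 to 2.84), against 1.26 (1.12 to 1.41) in monocyte-like and 1.16 (1.00 to 1.34) in macrophage-like cells. The monocyte-like ratio passed 1.5-fold when libraries were clustered separately (log2 0.81). Fibroblast-like cells had 1.64 CPM in Cd226-/- skin, 1.098 CPM in WT skin and 0.0706 CPM in naive CD45- skin, and cluster 11 had 26.8 CPM in Cd226-/- skin and 8.80 CPM in WT skin.

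Egfr encodes the receptor of the first 6 ligands. Fibroblast-like cells held 97.3% of Egfr UMIs in Cd226-/- skin, 96.0% in WT skin and 99.5% in naive CD45- skin. Their level was 240 CPM in Cd226-/- skin (235 to 245), 233 CPM in WT skin (228 to 237) and 208 CPM in naive CD45- skin (205 to 212). The libraries lay close together, with ratios of 1.03 (1.00 to 1.06) for Cd226-/- over WT, 1.15 (1.12 to 1.18) for Cd226-/- over naive and 1.12 (1.09 to 1.15) for WT over naive. Under TMM scaling the log2 ratios to naive were -0.03 for Cd226-/- and -0.07 for WT, so their direction rests on the scaling. A UMI was seen in 84.2% of these cells in Cd226-/- skin, 78.5% in WT skin and 57.4% in naive skin, at medians of 12670.0, 10166 and 6623 UMIs per cell. At 1000 UMIs per cell the shares were 20.9% in Cd226-/- skin, 20.01% in WT skin and 18.5% in naive skin. In lymphocyte-like cells the unthinned share was 0.482% in Cd226-/- skin, 2.82% in WT skin and 2.50% in naive CD45+ skin.

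Behind this level total the fibroblast clusters differed widely, and treated and naive cells fell into different ones. In naive CD45- skin Egfr ran from 52.3 CPM in cluster 21 (3257 cells) and 113 CPM in cluster 3 (1538 cells) to 336 CPM in cluster 25 (2773 cells), 488 CPM in cluster 2 (937 cells) and 604 CPM in cluster 17 (884 cells, led by Inmt and Gdf10). In treated skin most fibroblast-like cells were in clusters 4, 5, 6 and 10, which ranged from 179 to 283 CPM in Cd226-/- skin and from 209 to 311 CPM in WT skin. Cluster 11, the one highest for Ereg and Hbegf, was lower in Egfr, at 79.4 CPM in Cd226-/- skin and 103 CPM in WT skin. Cluster 20, led by the contractile genes Acta2 and Tagln, was also low, at 83.0 CPM in Cd226-/- skin, 118 CPM in WT skin and 87.8 CPM in naive CD45- skin. In cluster 17, which held 177 cells of WT skin, Egfr was 312 CPM in WT skin and 604 CPM in naive CD45- skin.

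**Figure D3:**
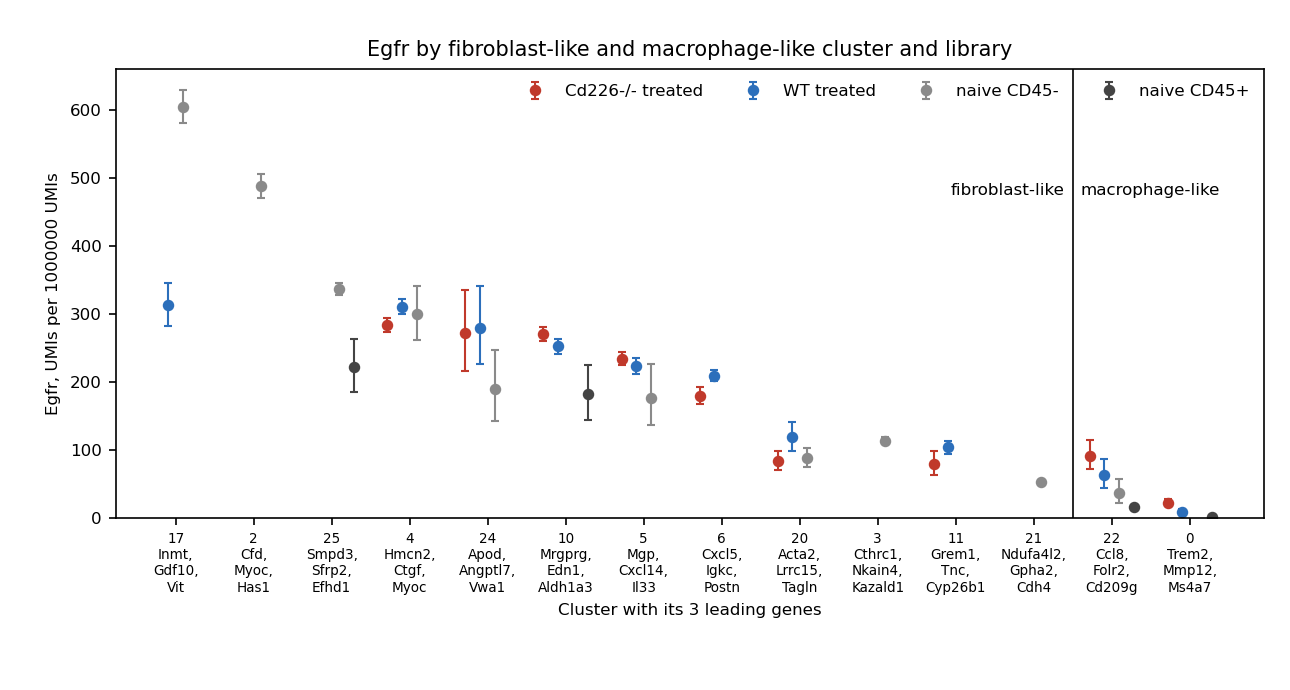
Egfr level (UMIs per 1000000 UMIs) by fibroblast-like and macrophage-like cluster and library, for clusters with at least 20 cells in the library, with 95% counting intervals. Naive CD45- fibroblast-like clusters spread from 52.3 to 604, whereas clusters 4, 5, 6 and 10 of treated skin lie between 179 and 311.

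Keratinocyte-like cells, the classical target of EGFR ligands in skin, had 78.8 CPM of Egfr in WT skin (69.0 to 89.6) and 110 CPM in naive CD45- skin (73.9 to 156), below the fibroblast-like level in both. Macrophage-like cells had 35.7 CPM in Cd226-/- skin (30.2 to 41.9), 17.7 CPM in WT skin (13.4 to 22.9) and 8.63 CPM in naive CD45+ skin (7.32 to 10.1). Against the naive CD45+ library the order Cd226-/-, WT, naive was clear of counting error, with ratios of 2.02 (1.48 to 2.78) for Cd226-/- over WT, 4.14 (3.28 to 5.22) for Cd226-/- over naive and 2.05 (1.49 to 2.79) for WT over naive. Cluster 22 carried most of it per UMI, with 90.9 CPM in Cd226-/- skin, 61.9 CPM in WT skin and 16.02 CPM in naive CD45+ skin, against 21.5, 8.48 and 1.02 CPM in cluster 0. Summed over all 7 fibroblast markers, none of which was at 0, the macrophage-like class had 549 CPM in Cd226-/- skin, 1180.5 CPM in WT skin and 76.2 CPM in naive CD45+ skin, which is 1.04%, 1.74% and 0.0952% of the fibroblast-like level. Egfr stood at 14.8% of its fibroblast-like level in Cd226-/- skin, 7.60% in WT skin and 4.31% in naive CD45+ skin. The naive CD45- library held 89 more macrophage-like cells, with 34.2 CPM of Egfr (18 UMIs, 20.3 to 54.1), near the Cd226-/- level. In those cells Egfr was 16.4% and the summed fibroblast markers 7.95% of the fibroblast-like level.

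In Langerhans or mature dendritic-like cells Egfr was 5.28 CPM in Cd226-/- skin and 21.9 CPM in WT skin, where fibroblast markers summed to 322 CPM in Cd226-/- skin and 1950 CPM in WT skin. Their ratio, 0.241 (0.124 to 0.443), came inside 1.5-fold with called doublets kept (log2 -0.14). The part of fibroblast RNA in both classes was not tested.

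Erbb2, the partner receptor, was spread over non-immune cells at low levels. Fibroblast-like cells had 11.4 CPM in Cd226-/- skin, 11.5 CPM in WT skin and 10.5 CPM in naive CD45- skin, with ratios of 0.993 (0.874 to 1.13) for Cd226-/- over WT, 1.08 (0.958 to 1.22) for Cd226-/- over naive and 1.09 (0.971 to 1.22) for WT over naive. Under TMM scaling the log2 ratios to naive were -0.12 for Cd226-/- and -0.11 for WT. Keratinocyte-like cells had 19.4 CPM in WT skin and 51.1 CPM in naive CD45- skin (14 UMIs in 38 cells). Endothelial-like cells had 14.7 CPM in Cd226-/- skin, 7.75 CPM in WT skin and 18.2 CPM in naive CD45- skin. These levels rest on few UMIs, so no order of the libraries is read from them. All 3 receptor genes together had 5 UMIs in 57 endothelial-like cells of Cd226-/- skin, 18 in 172 of WT skin and 13 in 139 of naive CD45- skin. Cells with an Erbb2 UMI mostly had an Egfr UMI too: 85.4% of 404 such fibroblast-like cells in Cd226-/- skin and 83.6% of 483 in WT skin, beside 84.2% of all fibroblast-like cells in Cd226-/- skin and 78.5% in WT skin.

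Erbb3, the neuregulin receptor, was highest in melanocyte-like cells, with 79.4 CPM in WT skin (53 UMIs in 28 of 52 cells). Neural crest-derived cells are known to depend on this receptor. Keratinocyte-like cells had 23.1 CPM in WT skin and 29.2 CPM in naive CD45- skin. Fibroblast-like cells had 5.997 CPM in Cd226-/- skin, 4.20 CPM in WT skin and 0.678 CPM in naive CD45- skin, so that Cd226-/- skin was 8.85-fold higher than naive skin (6.46 to 12.3) and WT skin 6.19-fold higher (4.497 to 8.68). Of the 3 receptor genes it was the one past 1.5-fold in this class. In treated skin the level was highest in cluster 10, led by Mrgprg, Edn1 and Aldh1a3, at 14.4 CPM in Cd226-/- skin (112 of 911 cells) and 14.7 CPM in WT skin (92 of 950 cells), and next in cluster 4, at 6.07 CPM in Cd226-/- skin and 4.76 CPM in WT skin. Cluster 10 held 13 naive CD45- and 28 naive CD45+ cells, so the class-wide ratio and the make-up of the class cannot be told apart. Macrophage-like cells had 5.55 CPM in Cd226-/- skin, 7.02 CPM in WT skin and 4.56 CPM in naive CD45+ skin, and the ratio of WT over naive, 1.54 (0.924 to 2.47), came inside 1.5-fold with another seed (log2 0.48) and with called doublets kept (log2 0.52).

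Pairs of a member and a class were compared where both libraries had at least 100 cells of the class and 50 UMIs of the gene between them, and were called past 1.5-fold either way. The naive side was the CD45+ library for immune classes and the CD45- library for the others. A pair can reach 50 UMIs through 1 library alone, as Ereg in monocyte-like cells and Areg and Ereg in fibroblast-like cells did. Against naive skin, Nrg1 in fibroblast-like, Hbegf in neutrophil-like and Areg in macrophage-like cells also reached it through the treated library. Epgn and Btc reached it in no class. The share of all genes tested in the class that were past the limit is given beside each count, first the higher and then the lower ones. For Cd226-/- over WT, 12 of 22 pairs were past 1.5-fold. Of 3 pairs in Langerhans or mature dendritic-like cells, Nrg1 was higher and Areg and Egfr were lower (3.23% and 7.44% of all genes). Of 8 pairs in fibroblast-like cells, Areg, Ereg and Tgfa were higher and none lower (6.9% and 6.13%). In monocyte-like cells Ereg was higher and Hbegf lower among 4 pairs (4.89% and 3.82%), and in macrophage-like cells Egfr was higher and Areg and Hbegf lower among 4 (3.74% and 4.4%). The Ereg call in monocyte-like cells rests on 6 cells with a UMI. Areg was the higher one of 2 pairs in lymphocyte-like cells (7.11% and 3.2%). The 1 pair in neutrophil-like cells was not past the limit (6.04% and 28.1%). Members and classes share cells and libraries, so the 12 are not independent of each other.

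Against naive skin the direction was mostly upward. For Cd226-/- over naive, 16 of 21 pairs were past 1.5-fold, 15 of them higher. Fibroblast-like cells had 6 of 8 pairs higher and none lower (24.9% and 14% of all genes), macrophage-like cells 4 of 5 higher (10.9% and 16.3%), and monocyte-like cells 2 of 4 higher with Ereg lower (8.44% and 9.7%). Areg in lymphocyte-like cells (12.3% and 12.9%), Hbegf in neutrophil-like cells (10.9% and 32.4%) and Nrg1 in dendritic-like cells (5.72% and 12.6%) were higher. For WT over naive, 16 of 20 pairs were past 1.5-fold, 14 of them higher. Fibroblast-like cells had 5 of 7 higher (20.6% and 11.7%), macrophage-like cells 5 of 5 (10.1% and 14.9%), and monocyte-like cells 2 of 4 with Ereg lower (6.55% and 10.9%). In lymphocyte-like cells Areg was higher and Hbegf lower (10.1% and 15.8%), in neutrophil-like cells Hbegf was higher (26.1% and 30.5%), and in endothelial-like cells Hbegf was within the limit (11.4% and 11.8%). Both treated libraries were set against the same naive libraries. In fibroblast-like cells the median log2 ratio over all genes was itself 0.20 for Cd226-/- over naive and 0.19 for WT over naive, and in neutrophil-like cells it was -0.28 for Cd226-/- over naive and -0.11 for WT over naive. The Tgfa ratio of WT over naive, 1.58, came inside the limit under TMM scaling (log2 0.43). The Hbegf ratio of WT over naive in lymphocyte-like cells, 0.629 (0.350 to 1.11), did so too (log2 -0.55), and it turned to 0.48 on the log2 scale with single-marker gates.

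**Figure D4:**
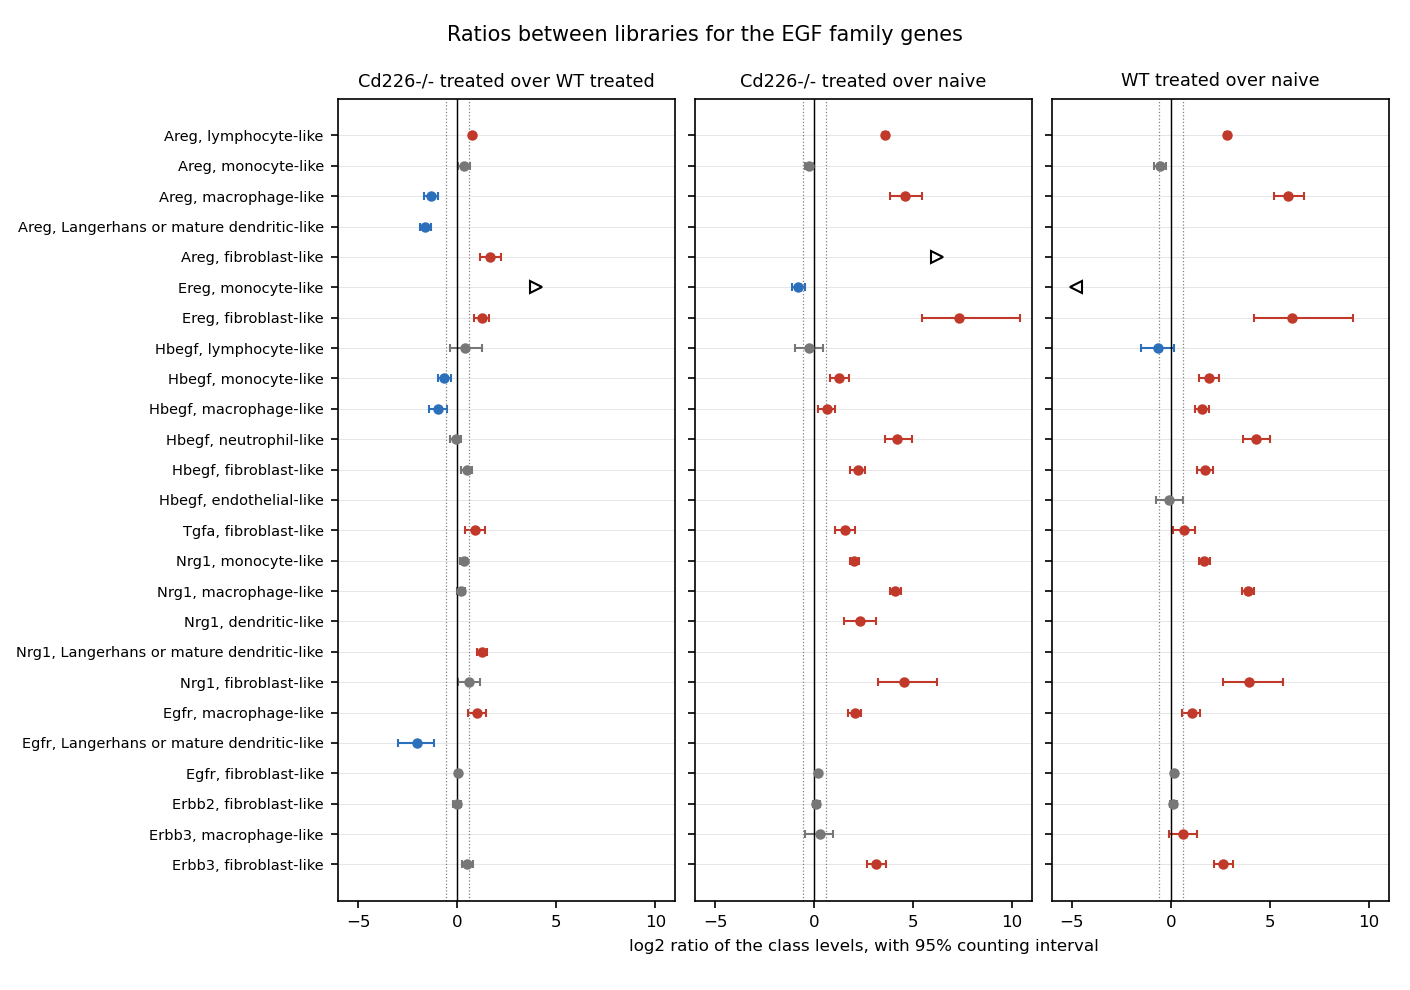
Log2 ratio of the class level for each gene and class that reached 50 UMIs in sum and 100 cells in each library, in 3 panels (Cd226-/- over WT, Cd226-/- over naive, WT over naive). Bars are 95% counting intervals, dotted lines mark 1.5-fold, red is higher, blue lower and grey within. Open triangles are bounds by UMI count only, with a count of 0 set to 3. Against naive skin 15 of 21 pairs in Cd226-/- skin are higher, while Egfr and Erbb2 in fibroblast-like cells stay near 0 in all 3 panels. Some of the higher pairs reached 50 UMIs through the treated library alone, so the count gives no direction.

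The rest of the pathway was read from a list of 43 genes with roles in shedding, signal transfer, feedback and response. In fibroblast-like cells 15 of 42 tested genes were higher and 4 lower for Cd226-/- over naive, with a median log2 ratio of 0.43, beside 24.9% and 14% of all genes, and 13 were higher and 2 lower for WT over naive, with a median of 0.39, beside 20.6% and 11.7%. The medians over all genes are given above. Farthest were Adam12, a metalloprotease that sheds EGFR ligands, at 21.1 CPM in Cd226-/- skin, 20.02 CPM in WT skin and 2.36 CPM in naive skin, and Rhbdf2, a rhomboid-like partner of the sheddase ADAM17, at 2.59, 4.39 and 0.494 CPM. Dusp4, a phosphatase that switches off ERK, was 1.15 CPM in Cd226-/- skin, 0.969 CPM in WT skin and 0.169 CPM in naive skin. For Cd226-/- over WT, 3 of 42 genes were higher in fibroblast-like cells, the transcription factor gene Myc (55.9 CPM in Cd226-/- skin and 35.4 CPM in WT skin), Socs5 (37.4 and 23.4 CPM) and Spry4 (5.54 and 3.101 CPM). The 1 lower gene was Rhbdf2. Over all genes 6.9% were higher and 6.13% lower, so the count of higher pathway genes is near the background. SOCS5 and SPRY4 are feedback inhibitors of receptor signalling.

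In lymphocyte-like cells 5 of 32 pathway genes were higher and none lower for Cd226-/- over WT, beside 7.11% and 3.2% of all genes. Farthest were Ier3, an immediate early gene (260 CPM in Cd226-/- skin and 103 CPM in WT skin), and the feedback inhibitor genes Spry4 (21.9 CPM in Cd226-/- skin and 9.12 CPM in WT skin) and Spry1 (21.5 CPM in Cd226-/- skin and 9.62 CPM in WT skin). Against naive skin Egr1, an immediate early transcription factor gene, was 933 CPM in Cd226-/- skin, 931 CPM in WT skin and 98.5 CPM in naive skin. Ier3 was 12.5 CPM in naive skin. Unlike Areg, these genes were not weighted by the WT mix of sub-clusters, which differed between the treated libraries. Spry1 was among the leading genes of L6, which made up 13.5% of lymphocyte-like cells in Cd226-/- skin and 10.1% in WT skin. The part of the mix in the differences was not tested.

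Over 29 sums of a class in a library with at least 50 cells, the genes most like Areg among 11277 were Ms4a4b, Cd2 and Gzmb (Pearson r of 0.913, 0.901 and 0.898 on log2 of CPM + 1), all lymphocyte genes. For Nrg1 they were Coro2a, Dpep2 and B3gnt5 (0.880, 0.863 and 0.853), for Hbegf Tra2a, Lrg1 and Chka (0.808, 0.751 and 0.742), and for Egfr Ism1, Efs and Arvcf (0.885, 0.879 and 0.865). The points share libraries and differ in depth, so these values describe the pattern over classes.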

How the data were processed

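Single cells of back skin were measured by 10x 3′ sequencing in 4 libraries, 1 per group. The deposited matrices hold whole-number counts of UMIs per gene and barcode, which the authors made with Cell Ranger 3.1.0 on mm10, per the submitters' processing notes, plus counts of 2 antibody tags. Library totals ran from 42043869 to 81406730 UMIs over 31053 genes. Barcodes with at least 500 genes, 1000 UMIs and at most 10% mitochondrial UMIs were kept, and doublets called by Scrublet were removed. Where under 0.5% were called, in the naive CD45+ library, the highest-scoring 5% were removed instead.

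Cells were scaled to 10000 UMIs, and 2000 variable genes (without EGF family and pathway genes), 30 principal components, 15 neighbours and Leiden resolution 1.0 gave 28 clusters (scanpy 1.11.5, Python 3.11.15), named from marker lists. The naming thresholds were chosen with the clusters in view. An earlier clustering changed with the number of computing threads, and principal components computed at a fixed precision replaced it before the members' values in the new clusters were read. The members and lists were chosen with earlier results of these data known. Raw UMIs were summed by class and library and given per 1000000. Levels need 20 cells and ratios 100 cells in both libraries. A count of 0 was set to 3 in a ratio. Intervals are exact 95% Poisson, Clopper-Pearson and conditional binomial intervals that take in counting error alone. No test was run, since each group is 1 library. The 10 members were all named, together with the 3 pathway genes farthest from equality and the 3 genes most like each main member. The alternatives tried were another resolution, separate clustering of each library, EGF genes kept, doublets kept, 20% mitochondrial UMIs, single-marker gates, TMM scaling (edgeR 4.0.16, used for scaling factors only), the richest cell left out, thinning to 2000 UMIs or none, and other UMI minimums. The seeds 1 and 2 of the clustering and the WT mix of lymphocyte sub-clusters were added after the data had been seen. The ratio calls and intervals were tried on simulated counts. These were independent Poisson draws, as the intervals assume, so they could not show the effect of UMIs gathered in few cells.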

Additional observations from a re-analysis of the deposited data

How the results depend on the processing

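The number of member and class pairs past 1.5-fold was 12 for Cd226-/- over WT and ran from 9 to 14 over the alternatives, 16 for WT over naive (12 to 17) and 16 for Cd226-/- over naive (14 to 18). Of the single log2 ratios, 507 recomputed values lay inside the counting interval of the value reported, 105 lay outside it, and 8 more turned a ratio that had been past 1.5-fold. In all 31 values changed sign, 23 of them of ratios within 1.5-fold. For Cd226-/- over WT, Areg in macrophage-like cells was 0.5215 with EGF genes kept for clustering, 0.4923 when libraries were clustered separately, 0.6989 with 20% mitochondrial UMIs and 1.004 with Leiden seed 1. In the same comparison Areg was 0.04716 in Langerhans or mature dendritic-like cells without the richest cells and -0.8633 in fibroblast-like cells with single-marker gates. Ereg in monocyte-like cells was 1.367 for Cd226-/- over naive when libraries were clustered separately, and Hbegf in lymphocyte-like cells was 0.4822 for WT over naive with single-marker gates. The cause was not tested. The seeds and the lymphocyte ratio with the WT mix of sub-clusters (log2 0.5547 for Areg) were chosen after seeing the data. Over all genes the median log2 ratio was -0.14 in neutrophil-like cells for Cd226-/- over WT and -0.11 in lymphocyte-like cells for WT over naive. No paired analysis was possible because each group is 1 library. No ratio could be had for Nrg1 in dendritic-like cells with 20% mitochondrial UMIs, separate clustering or single-marker gates, for Hbegf in neutrophil-like cells of WT skin with separate clustering or gates, and for Langerhans or mature dendritic-like cells with gates. Ereg, Tgfa, Epgn and Btc rest on 610, 314, 58 and 63 UMIs, and 3 pooled mice per treated library give no spread between animals.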

Other observations

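Among family genes outside the 10, Nrg2, a neuregulin gene, was concentrated in cluster 13, a non-immune cluster left unnamed and led by Sostdc1, Wif1, Rspo3 and Corin, which held 234 cells in Cd226-/- skin, 417 in WT skin and none in the naive libraries. Nrg2 there was 692 CPM in Cd226-/- skin (654 to 731) and 856 CPM in WT skin (819 to 895), which was 94.2% of all Nrg2 UMIs of the Cd226-/- library and 92.1% of those of the WT library. Nrg2 is among the 10 leading genes of that cluster, so its presence there is a description. The same cluster had 23.7 CPM of Erbb2 in Cd226-/- skin (17.1 to 31.9) and 13.7 CPM in WT skin (9.34 to 19.5), and 2 UMIs of Erbb3 in Cd226-/- skin and 3 in WT skin. Egf, Nrg4, Erbb4 and Nrg3 had 183, 62, 4 and 1 UMIs in all kept cells.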
